A study of Mus musculus with 6 samples.

Results

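The 10 genes Chad, Cytl1, Sox9, Fmod, Prg4, Cilp, Tnmd, Scx, Acan and Hapln1, known for their roles in cartilage, tendon and heart valves, were followed in left ventricular RNA of Chow and HFpEF mice. They are 10 of the 54532 genes in the deposited expression table, and all 10 were found there through their Ensembl identifiers. The genes were chosen by their measured difference between HFpEF and Chow in these same 6 libraries, with no numerical threshold, so that difference is described here and not tested. Male C57BL/6 mice of the HFpEF group were given a diet with 60% of kcal from fat for 12 weeks, together with 0.5 g/L L-NAME, which blocks nitric oxide synthesis, in their water. The Chow group, also male C57BL/6 mice, ate a standard diet and had no L-NAME during those 12 weeks. Each group held 3 libraries from 3 separate mice, and no group received the diet or L-NAME alone, so the treatments cannot be told apart.

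Expression was deposited as FPKM, a count of fragments corrected for exon length and for a scaling of each library. Levels of different genes can be compared on it, and the scaling here differed from the read totals. Reads recovered from the FPKM steps of genes with whole values totalled 12459042 to 14911656 in the Chow libraries and 12781414 to 15278434 in the HFpEF libraries. The ventricular cardiomyocyte markers Myh6 and Myl2, a heavy and a light chain of the cardiac myosin motor, had FPKM of 2800 to 3373 and 2197 to 2361 in Chow, and of 1541 to 2639 and 854 to 1216 in HFpEF. HFpEF replicate 3 stood apart from the other libraries. It lay at 75.5 on the first principal component, against 11.5 and 12.7 for HFpEF replicates 1 and 2 and −35.8 to −31.7 for Chow, and mitochondrially encoded genes took 7.18% of its reads against 20.1% to 26.0% in the other 5 libraries. A second irregularity concerned genes of atrial muscle. Myl7, the atrial myosin light chain, had FPKM of 3.81, 0.289 and 237 in Chow replicates 1 to 3 and of 975, 2073 and 8.60 in HFpEF replicates 1 to 3.

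Cartilage, tendon and heart valves are built by resident cells that secrete a dense matrix of collagen fibrils, proteoglycans and adhesive glycoproteins. Sox9 directs the chondrocyte programme and also takes part in valve formation, and scleraxis (Scx) marks tendon progenitors. The remaining genes encode matrix or secreted products of such cells, apart from Tnmd, which encodes a membrane protein. In healthy ventricular muscle these proteins are minor components, whereas the fibrous skeleton, the valve leaflets and the chordae hold more of them.

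RefSeq promoter sequences (build GRCm38.p6) were at hand for 7 of the 10 genes, all but Sox9, Prg4 and Scx. The 250 bases upstream of the RefSeq start, which can differ from the GENCODE start given for each gene below, were searched on both strands for TATAAA (the TATA box), for CATCTG (an E-box of the kind that scleraxis reads) and for ACAAAG and AACAAT, core motifs of SOX proteins. TATAAA was found upstream of 1 of the 7 genes, Chad, and of 12.97% of all 27025 RefSeq promoters. CATCTG stood upstream of Fmod alone and in 14.48% of all promoters, and ACAAAG, as its reverse complement CTTTGT, upstream of Tnmd alone and in 16.46%. AACAAT was in 0 of the 7 and in 9.647% of all promoters. The 3 sequences with a match are shown 5′ to 3′ on the gene's own strand, with the match in capitals, because Chad, Fmod and Tnmd represent the cartilage, collagen-binding and tendon products described next. They are chr11:94564797-94565046 (plus strand, match at −28 from the RefSeq start), chr1:134037004-134037253 (plus strand, −189) and chrX:133850758-133851007 (plus strand, −213). For Tnmd the RefSeq start lies 28 bases inside the GENCODE gene, so the last bases shown are within it, and for Hapln1 and Acan the starts differ by 840 and −257 bases (RefSeq minus GENCODE). A match describes these letters only.
Chad: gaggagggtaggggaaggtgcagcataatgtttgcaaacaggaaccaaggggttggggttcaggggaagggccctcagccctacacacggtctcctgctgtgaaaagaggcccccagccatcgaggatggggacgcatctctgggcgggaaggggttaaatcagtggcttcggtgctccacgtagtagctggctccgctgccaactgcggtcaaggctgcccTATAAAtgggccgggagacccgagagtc
Fmod: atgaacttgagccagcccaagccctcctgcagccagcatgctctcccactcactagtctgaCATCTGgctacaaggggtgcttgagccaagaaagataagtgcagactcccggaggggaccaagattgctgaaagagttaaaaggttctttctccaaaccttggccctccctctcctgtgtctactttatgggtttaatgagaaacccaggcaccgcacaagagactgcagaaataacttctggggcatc
Tnmd: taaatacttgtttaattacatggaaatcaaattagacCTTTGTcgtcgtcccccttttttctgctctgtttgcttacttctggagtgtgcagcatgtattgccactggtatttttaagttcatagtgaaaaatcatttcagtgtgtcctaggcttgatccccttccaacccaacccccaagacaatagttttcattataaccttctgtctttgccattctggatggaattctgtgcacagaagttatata

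Of the transcription factors, Sox9 (ENSMUSG00000000567) lies on chromosome 11 from 112782224 to 112787760 of GRCm38. FPKM of Sox9 was 0.696, 0.907 and 0.700 in Chow replicates 1 to 3 and 2.36, 1.11 and 5.08 in HFpEF replicates 1 to 3. The groups did not overlap, and HFpEF replicate 3 was the highest library. HFpEF had a mean of 2.85 ± 2.03 (SD, n = 3) and Chow of 0.768 ± 0.121 (SD, n = 3), a ratio of 3.71. In bulk tissue such as this, more cells that express a gene and more RNA per cell cannot be told apart.

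Scx (ENSMUSG00000034161, chromosome 15, 76457452 to 76459458) showed no such separation. FPKM of Scx was 2.76, 3.74 and 3.79 in Chow and 3.92, 1.59 and 4.93 in HFpEF replicates 1, 2 and 3. HFpEF replicates 1 and 3 were above every Chow library, while HFpEF replicate 2 was below every Chow library. The means, 3.43 ± 0.58 (SD, n = 3) and 3.48 ± 1.71 (SD, n = 3), were nearly equal, and the direction depended on the scale. The log2 fold change, taken here and below as the difference between the group means of log2(FPKM + 0.1), was −0.11, whereas it was 0.40 with values rescaled to the same sum in each library and 0.36 without HFpEF replicate 2. Scx is embedded in the gene Bop1 on the opposite strand (76452989 to 76477277), with which it shares no exon bases. Bop1, a ribosome biogenesis factor, had FPKM of 7.08, 8.73 and 7.72 in Chow and 7.18, 5.83 and 8.61 in HFpEF, so HFpEF replicate 2 was also its lowest library. Whether strand was used in counting is not given in the sources used here, and unspliced Bop1 reads cannot be told apart from Scx reads.

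Chad and Fmod encode leucine-rich repeat proteins that bind collagen. Chad, chondroadherin (ENSMUSG00000039084, chromosome 11, 94565047 to 94569127), anchors chondrocytes to their matrix. FPKM of Chad was 0.669, 0.507 and 0.345 in Chow (16, 10 and 7 reads) and 13.0, 0.281 and 6.84 in HFpEF (303, 8 and 222 reads). Among the 10 genes it had the widest spread between HFpEF libraries with reads in all 3, with replicate 1 at 46.3 times and replicate 3 at 24.3 times replicate 2, which lay below every Chow library. The means of 0.507 ± 0.162 (SD, n = 3) and 6.72 ± 6.37 (SD, n = 3) gave a ratio of 13.3, and the SD in HFpEF was close to its mean. By level, Chad ranked 2795 of 21622 detected genes in HFpEF replicate 1, 5084 of 22366 in replicate 3 and 16113 of 21773 in replicate 2.

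Fmod, fibromodulin (ENSMUSG00000041559, chromosome 1, 134037254 to 134048277), sits on collagen fibrils and takes part in setting their thickness in tendon. FPKM of Fmod was 4.29, 2.78 and 3.73 in Chow and 25.1, 8.07 and 13.0 in HFpEF. The groups did not overlap, although HFpEF replicate 2 remained nearest to Chow. The means were 3.60 ± 0.76 (SD, n = 3) and 15.4 ± 8.74 (SD, n = 3), a ratio of 4.27, with 459 reads over the Chow libraries and 2428 over the HFpEF libraries.

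Aggrecan (Acan, ENSMUSG00000030607, chromosome 7, 79053483 to 79115099) is the large proteoglycan that holds water in cartilage, and Hapln1 (ENSMUSG00000021613, chromosome 13, 89539796 to 89611652) is the link protein that fastens it to hyaluronan. Both were near the limit of detection. FPKM of Acan was 0.0470, 0 and 0.0443 in Chow (5, 0 and 4 reads) and 0.329, 0.0237 and 0.173 in HFpEF (34, 3 and 25 reads). FPKM of Hapln1 was 0 in all 3 Chow libraries and 0.306, 0 and 0.167 in HFpEF (25, 0 and 19 reads). In both genes HFpEF replicates 1 and 3 held nearly all of the reads and replicate 2 lay within the Chow range. The HFpEF mean of Acan was 5.76 times the Chow mean. For Hapln1 the HFpEF mean was at least 11.8-fold higher, taking 3 reads over the 3 Chow libraries as the most that 0 reads allow. Such limits cover counting error only.

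Prg4 encodes lubricin, which coats gliding surfaces of joints and tendons, and Cilp the cartilage intermediate layer protein, which binds TGF-beta and is also made by cardiac fibroblasts. FPKM of Prg4 (ENSMUSG00000006014, chromosome 1, 150449412 to 150466165) was 1.41, 2.11 and 1.82 in Chow and 8.28, 3.20 and 6.64 in HFpEF. Its groups did not overlap, and the means of 1.78 ± 0.35 (SD, n = 3) and 6.04 ± 2.60 (SD, n = 3) gave a ratio of 3.40. Prg4 shares 204 of its 4280 exon bases (4.77%) with Tpr on the opposite strand, whose reads cannot be told apart there without strand. FPKM of Cilp (ENSMUSG00000042254, chromosome 9, 65265180 to 65280605) was 2.23, 2.37 and 2.20 in Chow and 8.08, 3.35 and 37.2 in HFpEF. Cilp had the smallest SD relative to its Chow mean of the 8 genes detected there and was dominated by 1 library in HFpEF. The HFpEF mean was 16.2 ± 18.3 (SD, n = 3) against 2.26 ± 0.09 (SD, n = 3), a ratio of 7.16, and replicate 3 alone held 3055 of the 3772 HFpEF reads.

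Tnmd encodes tenomodulin, a membrane glycoprotein of tendon cells that adipose tissue also expresses, and Cytl1 encodes a small secreted protein found in cartilage. Tnmd (ENSMUSG00000031250, chromosome X, 133850980 to 133865577) had 0 reads in the 3 Chow libraries and 1, 0 and 4 reads in HFpEF replicates 1, 2 and 3. Its FPKM of 0.0534, 0 and 0.153 in HFpEF was at least 1.18-fold higher on average than the 3-read limit over the Chow libraries, and 5 reads give little precision. FPKM of Cytl1 (ENSMUSG00000062329, chromosome 5, 37735519 to 37739820) was 11.6, 8.47 and 5.56 in Chow and 40.2, 16.7 and 17.4 in HFpEF. Cytl1 was the most abundant of the 10 genes in both groups by its mean, and its groups did not overlap. The means were 8.56 ± 3.04 (SD, n = 3) and 24.8 ± 13.4 (SD, n = 3), a ratio of 2.89. HFpEF replicates 2 and 3 were close together for Cytl1, at 1.04 times each other, unlike for the other genes with reads in every HFpEF library.

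**Figure D1:**
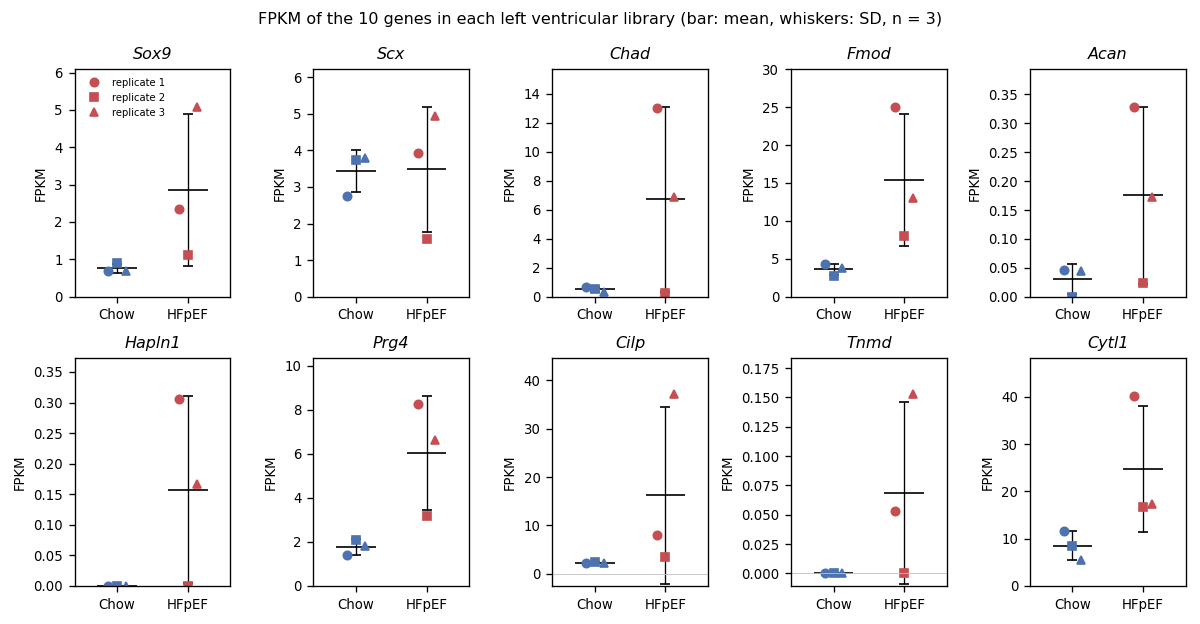
FPKM (linear vertical axis, 1 scale per gene) of each of the 10 genes in the 3 Chow (blue) and 3 HFpEF (red) libraries, with marker shape for the replicate number, a bar at the mean and whiskers for the SD (n = 3). The square of HFpEF replicate 2 is the lowest HFpEF point in all 10 panels, and in Scx it lies below the Chow libraries.

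By mean FPKM in Chow the order was Cytl1, Fmod, Scx, Cilp, Prg4, Sox9, Chad and Acan, followed by Tnmd and Hapln1 at 0. Of the neighbours in this order, Fmod and Scx overlapped between their Chow libraries, Acan shared a 0 in Chow replicate 2 with Tnmd and Hapln1, and the other neighbours did not overlap. In HFpEF the order of means was Cytl1, Cilp, Fmod, Chad, Prg4, Scx, Sox9, Acan, Hapln1 and Tnmd. Chad thus stood ahead of Prg4, Scx and Sox9 by its HFpEF mean. The ranges of Sox9 (1.11 to 5.08) and Acan (0.0237 to 0.329) did not overlap in HFpEF, while all other neighbours overlapped.

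Within libraries the 10 genes shared a pattern. HFpEF replicate 2 was the lowest HFpEF library for 10 of the 10 genes, a pattern shown by 27.3% of the 14225 genes tested across the whole table. The maximum was in HFpEF replicate 1 for 6 of the 10 (30.2% of all genes tested), namely Chad, Cytl1, Fmod, Prg4, Acan and Hapln1. It was in HFpEF replicate 3 for the other 4 (38.5%), namely Sox9, Cilp, Tnmd and Scx. Replicate 1 and replicate 3 each lay above every Chow library for 10 of the 10 genes (31.9% and 38.3% of all genes tested), whereas replicate 2 did so for 5 of the 10 (32.3%). With values rescaled to an equal sum in each library, replicate 1 and replicate 3 were each the highest for 5 of the 10. The genes were chosen on this contrast, and the shares of all genes are given for scale only.

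Relative to the Chow mean of log2(FPKM + 0.1), HFpEF replicates 1, 2 and 3 had medians over the 10 genes of 1.90, 0.25 and 1.63. The same medians over all genes tested were −0.01, −0.01 and −0.02. The range in replicate 2 ran from −1.05 for Scx to 1.16 for Fmod, and in replicates 1 and 3 all 10 values were above 0. Summed over the 10 genes, FPKM was 23.8, 20.9 and 18.2 in Chow and 102, 34.3 and 91.5 in HFpEF replicates 1 to 3. The make-up of the sum differed between the HFpEF libraries, with Cytl1 the largest share in replicates 1 and 2 and Cilp in replicate 3.

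**Figure D2:**
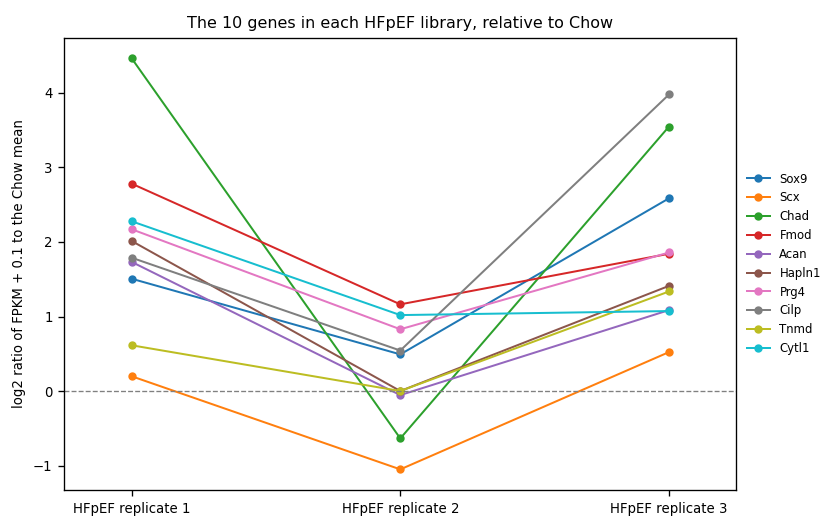
Difference of log2(FPKM + 0.1) from the Chow mean (vertical axis) in each HFpEF library (horizontal axis), with 1 line per gene and a dashed line at 0. The lines dip at HFpEF replicate 2, where the median is 0.25, and lie above 0 for every gene in replicates 1 and 3.

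All 3 HFpEF libraries were above all 3 Chow libraries for 5 of the 10 genes (Cytl1, Sox9, Fmod, Prg4 and Cilp), and 15.6% of all genes tested showed this. The other 5 overlapped through HFpEF replicate 2 alone. Without that library HFpEF was above Chow with no overlap for 10 of the 10 genes and for 21.1% of all genes tested, and without any other library the number stayed at 5. The log2 fold changes ran from −0.11 for Scx to 2.46 for Chad, with a median of 1.49 against −0.01 over all genes tested. With Tnmd and Hapln1 set to their lower bounds the median was 1.57. Single values depended on the library and the pseudocount. Chad was at 1.46 without HFpEF replicate 1 and at 4.01 without replicate 2, and Cilp and Sox9 were at 1.17 and 1.00 without replicate 3. With a pseudocount of 0.01 Hapln1 was at 3.04, above Chad at 2.57. The low genes Tnmd, Acan and Hapln1 ranged widest over the pseudocounts, at 0.09, 0.18 and 0.20 with a pseudocount of 1. For the whole comparison, 7 of the 10 genes reached the FPKM minimum of 0.5 in 3 libraries, and Tnmd, Acan and Hapln1 did not.

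The other genes of these tissues were followed through 12 lists with 141 genes, of which 85 were tested. Across the table, limma called 8 of the 14225 genes differentially expressed and higher in HFpEF (0.0562%) and 0 lower (0%), the rule being a log2 fold change of 2 or more in size with an adjusted p (Benjamini-Hochberg) under 0.05. Apart from Hp, the called genes (Cfd, Cyp2e1, Car3, Mir199a-1, Cidec, Adipoq and Gm25965) were under 0.5 FPKM in every Chow library. They reached the FPKM minimum through the HFpEF libraries alone and so had to differ, and their count is no support for a difference. Without any 1 of the Chow libraries 2 genes were called, both higher, and 3 were called without HFpEF replicate 1, all higher. Omitting HFpEF replicate 2 gave 23 higher genes and 1 lower, and omitting HFpEF replicate 3 gave 47 higher genes and 12 lower. By contrast, limma-voom on the recovered reads called 0, with 1374 genes higher and 1816 lower at an unadjusted p under 0.05. At an unadjusted p under 0.05, 1452 genes were higher (10.2%) and 1868 lower (13.1%). Values rescaled to an equal sum in each library put the median log2 fold change of all genes at 0.50 and gave 4112 higher (28.9%) and 117 lower (0.823%).

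Of the 85 list genes, 0 passed an adjusted p under 0.05, the lowest being 0.0542 for Mgp (limma), and the lowest adjusted p ranged from 0.00794 to 0.261 over the alternatives run. At an unadjusted p under 0.05, 37 were higher in HFpEF (43.5%) and 1, Alpl, was lower. Without Chow replicate 1 these 38 became 24, and without Chow replicate 2 they became 22. Values rescaled to an equal sum in each library gave 53 list genes higher and 0 lower, so Alpl no longer passed. On that scale 28.9% of all genes tested were higher. Adamts19 and Pthlh reached the FPKM minimum through the HFpEF libraries alone, and without them 36 of 83 were higher. The groups did not overlap for 44 higher genes (51.8%, against 15.6% of all genes tested) and for 1 lower gene (against 19.7%). The lists were written with earlier results of these data known, so the counts describe these libraries. HFpEF replicate 2 was the lowest HFpEF library for 51 of the 85 (60.0%), while replicate 3 was the highest for 54 (63.5%) and replicate 1 for 19 (22.4%).

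Of 8 cartilage collagens only Col27a1 was tested, with FPKM of 0.512, 0.425 and 0.540 in Chow and 0.765, 0.571 and 2.64 in HFpEF and an unadjusted p of 0.115 (limma). Col11a2, a chain of a minor fibrillar collagen, had FPKM of 0.257, 0.299 and 0.375 in Chow and 0.920, 0.415 and 1.30 in HFpEF, and Col11a1 reached 1.30 in HFpEF replicate 3 and at most 0.0340 elsewhere. Col27a1 and Col11a2 were the only 2 of the 8 with every HFpEF library above every Chow library (15.6% of all genes tested). Replicate 2 was the lowest HFpEF library for 6 of the 8, these 2 included (27.3% of all genes tested). Col2a1, the main fibrillar collagen of cartilage, was at 0.0179 or less in any library. Among 13 cartilage matrix proteins 5 were tested and 2 were higher at an unadjusted p under 0.05, against 10.2% of all genes tested. Comp, cartilage oligomeric matrix protein, which helps assemble collagen fibrils, had FPKM of 2.13, 1.67 and 3.34 in Chow and 22.2, 6.51 and 20.6 in HFpEF, with a log2 fold change of 2.60 (SE 0.50) and an adjusted p of 0.0988 (limma). HFpEF replicates 1 and 3 were again above replicate 2. Cilp2, the paralogue of Cilp, behaved differently, with FPKM of 0.0814, 0.178 and 3.87 in Chow and 12.6, 29.6 and 1.82 in HFpEF, so its highest library was HFpEF replicate 2. Clec3a, a cartilage lectin chosen here after its values were seen, had 0 reads in Chow and in HFpEF replicate 2 and FPKM of 1.10 and 2.80 in HFpEF replicates 1 and 3.

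Of all genes tested, 10.2% were higher and 13.1% lower at an unadjusted p under 0.05. Of 7 tested chondrogenic regulators 2 were higher at that p, the transcription factors Foxc1 (log2 fold change 0.85, SE 0.31) and Trps1 (0.92, SE 0.34). Of 4 tested mineralization genes 2 were higher. Mgp, matrix Gla protein, an inhibitor of calcification, had FPKM of 97.2, 79.8 and 102 in Chow and 270, 221 and 223 in HFpEF, with a log2 fold change of 1.36 (SE 0.16). Unlike the 10 genes, Mgp was at a similar level in all 3 HFpEF libraries. Alpl, alkaline phosphatase, had FPKM of 8.03, 8.41 and 9.02 in Chow and 6.32, 5.77 and 4.79 in HFpEF. Sost, the Wnt inhibitor sclerostin, had FPKM of 0.476, 0.536 and 0.480 in Chow and 21.5, 0.428 and 6.62 in HFpEF, with an unadjusted p of 0.0593 (limma). Sost shared with Chad a value in HFpEF replicate 2 below every Chow library.

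Of 10 tested tendon and ligament genes 3 were higher at an unadjusted p under 0.05 (Dpt, Col1a2 and Col14a1), against 10.2% of all genes tested. Col14a1, a fibril-associated collagen, had FPKM of 2.89, 2.56 and 3.79 in Chow and 12.4, 10.5 and 86.6 in HFpEF. Small leucine-rich proteoglycans, the family of Fmod, had the largest number, with 8 of 11 tested genes higher. Dcn (decorin), the most abundant, had FPKM of 123, 117 and 99.7 in Chow and 177, 168 and 196 in HFpEF (log2 fold change 0.67, SE 0.14). Bgn (biglycan) had FPKM of 37.5, 35.7 and 33.4 in Chow and 114, 52.6 and 183 in HFpEF (log2 fold change 1.53, SE 0.42). Replicate 2 was the lowest HFpEF library in 10 of these 11 genes, Podn being the exception.

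At an unadjusted p under 0.05, 10.2% of all genes tested were higher, which gives the scale for the counts that follow. Of 7 tested hyaluronan and lectican genes 3 were higher. Among them was Vcan, the versican of valves and vessels, with a log2 fold change of 1.32 (SE 0.50). Aggrecan-cleaving proteases and their inhibitor numbered 3 of 7, with Adamts15 (1.42, SE 0.24), Mmp3 (2.06, SE 0.61) and the inhibitor Timp3 (0.57, SE 0.17). The aggrecanases Adamts5 and Adamts1 had log2 fold changes of 0.21 (SE 0.22) and 0.14 (SE 0.22) and did not pass. Valve development genes numbered 4 of 13, with Eln (elastin, 2.73, SE 0.45), Adamts19 (2.41, SE 0.38), Postn (periostin, 3.28, SE 1.13) and Twist1 (1.53, SE 0.49). Adamts19 reached the FPKM minimum through the HFpEF libraries alone, with all Chow libraries under 0.5, and so had to differ. TGF-beta and BMP genes numbered 6 of 10, including Tgfb3 (1.54, SE 0.42) and Chrdl1 (1.35, SE 0.32), and collagen-binding integrins 1 of 3, Itga11 (0.85, SE 0.33).

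**Figure D3:**
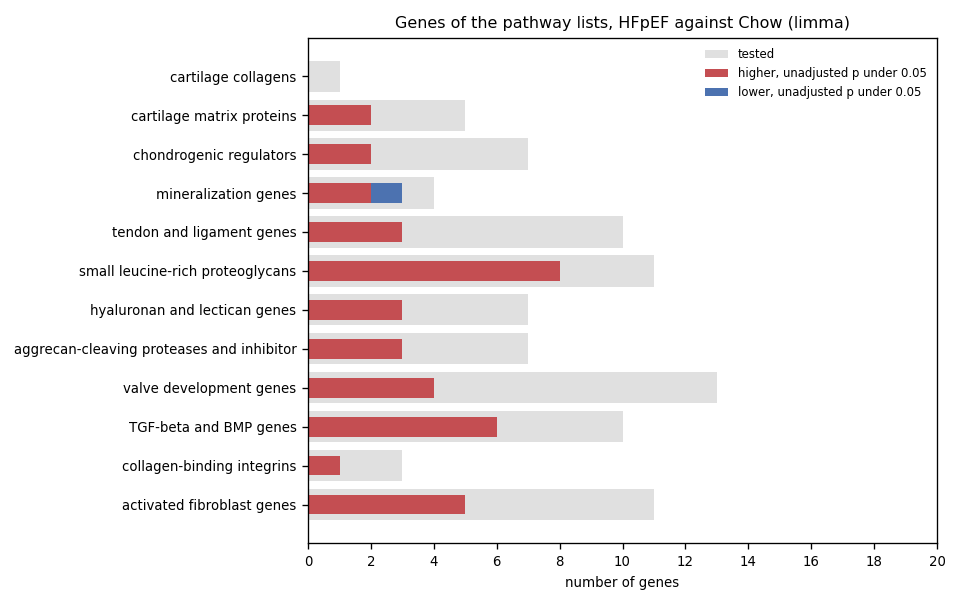
Number of genes (horizontal axis) per list that were tested (grey) and that were higher (red) or lower (blue) in HFpEF at an unadjusted p under 0.05 in limma. Small leucine-rich proteoglycans hold the most higher genes, 8 of 11, and the only lower gene is Alpl among the mineralization genes. Of all genes tested, 10.2% were higher and 13.1% lower.

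The highest library of most activated fibroblast genes was HFpEF replicate 3, for 11 of 13 genes, and replicate 2 was the lowest HFpEF library for 7 of the 13. Of 11 tested, 5 were higher at an unadjusted p under 0.05 (Postn, Fn1, Lox, Ltbp2 and Comp), against 10.2% of all genes tested. Col1a1, the main collagen of scar and tendon, had FPKM of 27.2, 25.6 and 24.9 in Chow and 54.0, 87.2 and 2252 in HFpEF, with an unadjusted p of 0.0553 (limma). Summed over the 13 genes of the list, FPKM was 147, 159 and 167 in Chow and 615, 314 and 5040 in HFpEF. This sum, like that of the 10 genes, was lower in HFpEF replicate 2 than in replicates 1 and 3, and it was far above the others in replicate 3. The order of replicates 1 and 2 in this sum leaned on Acta2, at 422 and 48.8 FPKM. The median log2 ratio to the Chow mean over the tested genes of the list was 1.125, 1.433 and 4.688 in HFpEF replicates 1 to 3. By that median replicate 1 was the lowest, unlike in the 10 genes. For the 10 genes the order of replicates 1 and 3 depended on the scale, with sums of 102 and 91.5 as deposited and of 104 and 153 with values rescaled to an equal sum in each library. Cilp and Sox9 were the members with the highest replicate 3 relative to replicate 1, at 4.60 and 2.16 times, apart from Tnmd with its 5 reads.

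Markers of other cell types were read in the same libraries. In the list of 7 smooth muscle and pericyte genes, replicate 2 was the lowest HFpEF library in 5, and the summed FPKM was 295, 303 and 338 in Chow and 680, 216 and 497 in HFpEF. Acta2, smooth muscle actin, had 53.2, 73.1 and 77.9 in Chow and 422, 48.8 and 262 in HFpEF. It was the most abundant gene of the list by its HFpEF mean (244), whereas by the Chow mean Rgs5 was higher (152 against 68.1). Cnn1, calponin, had 1.18, 1.43 and 2.45 in Chow and 24.7, 0.798 and 10.1 in HFpEF. Myh11, the smooth muscle myosin, had 9.36, 10.4 and 12.3 in Chow and 63.7, 6.99 and 30.4 in HFpEF. Tagln, transgelin, had 0.106, 0.0429 and 0.166 in Chow and 0.981, 0.0594 and 1.28 in HFpEF. On the deposited scale Acta2, Cnn1 and Myh11 had the same order of HFpEF libraries as Chad, with replicate 1 above replicate 3 and replicate 2 below every Chow library, whereas in Tagln replicate 3 was the highest and replicate 2 lay within the Chow range. Of the 3 pericyte genes, Kcnj8 and Abcc9 were lower in every HFpEF library than in every Chow library (19.7% of all genes tested). The groups overlapped for Rgs5 (142 to 165 in Chow and 109 to 147 in HFpEF), and no gene of the list was at 0. Of these genes, all but Acta2 were singled out after their values were seen. The part of smooth muscle in the result was not tested.

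Of all genes tested, 48.8% had a fitted value above Chow and 10.2% were higher at an unadjusted p under 0.05. Resting fibroblast markers, which the ventricle also holds in health, were fitted higher in 8 of 8 genes, with 5 at an unadjusted p under 0.05. Their summed FPKM was 853, 749 and 668 in Chow and 1223, 1191 and 1158 in HFpEF, with Gsn the most abundant, and replicate 2 was the lowest HFpEF library in 4 of the 8. Macrophage markers were fitted higher in 6 of 6 genes, with 2 at an unadjusted p under 0.05. They summed to 227, 228 and 179 FPKM in Chow and 227, 296 and 767 in HFpEF, led by Lyz2, and replicate 3 was the highest HFpEF library for all 6. Schwann cell markers were fitted higher in 4 of 4 genes, 3 of them at an unadjusted p under 0.05, with HFpEF replicate 2 the lowest in 0 of 4. Red blood cell markers summed to 280, 1591 and 501 FPKM in Chow and 1813, 478 and 585 in HFpEF, and none passed an unadjusted p under 0.05. Replicate 2 was the lowest HFpEF library for 4 of these 5 genes. The part of these cell types in the values of the 10 genes was not tested.

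In the list of 7 chondrocyte markers the summed FPKM was 2.16, 2.47 and 1.74 in Chow and 2.69, 1.57 and 2.78 in HFpEF. Its most abundant gene was Cnmd, chondromodulin, with 1.83, 2.17 and 1.35 in Chow and 1.45, 1.12 and 0.815 in HFpEF. Of the other 6, Col2a1, Col9a1, Matn1, Matn3 and Snorc were at 0.309 or less in every library, while Col11a2 reached 0.920 and 1.30 in HFpEF replicates 1 and 3. The name of the group rests on what the 10 genes are known for, and the part of chondrocytes in the result was not tested. Adipocyte markers had summed FPKM of 0, 0.0183 and 0 in Chow and 55.2, 60.1 and 28.8 in HFpEF, led by Cfd, and their highest HFpEF library was replicate 2. Of 6 adipocyte genes 4 reached the FPKM minimum, all through the HFpEF libraries alone, and 3 of these (Adipoq, Cfd and Cidec) passed an adjusted p under 0.05 (limma). Genes that passed the minimum in this way had to differ, so their count is no support for a difference. Of all genes tested, 13 higher in HFpEF (0.0914%) and 1 lower (0.00703%) passed that adjusted p.

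The summed atrial markers did not separate the groups, and their order of HFpEF libraries was not that of the 10 genes. The 5 genes summed to 13.3, 16.2 and 538 FPKM in Chow and 2453, 3834 and 20.6 in HFpEF, with Myl7 the most abundant. Bmp10, made by right atrial muscle, was at 148 FPKM in HFpEF replicate 1 and at 0.0263 or less in the other libraries. By the atrial sum, HFpEF replicate 3, high for the 10 genes, was low, and replicate 2, their lowest HFpEF library, was the highest. Replicate 1 was high for the atrial sum as well as for the 10 genes. Replicate 2 was the highest HFpEF library for 4 of the 5 atrial genes, all but Bmp10. Epicardial and mesothelial markers were highest in HFpEF replicate 2 for 6 of 7 genes, with sums of 30.8, 20.2 and 28.7 in Chow and 38.8, 133 and 63.1 in HFpEF. Ventricular cardiomyocyte markers summed to 14510 to 16060 FPKM in Chow and 10260, 10930 and 7013 in HFpEF. The part of atrial, epicardial and adipose tissue in the values of the 10 genes was not tested.

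**Figure D4:**
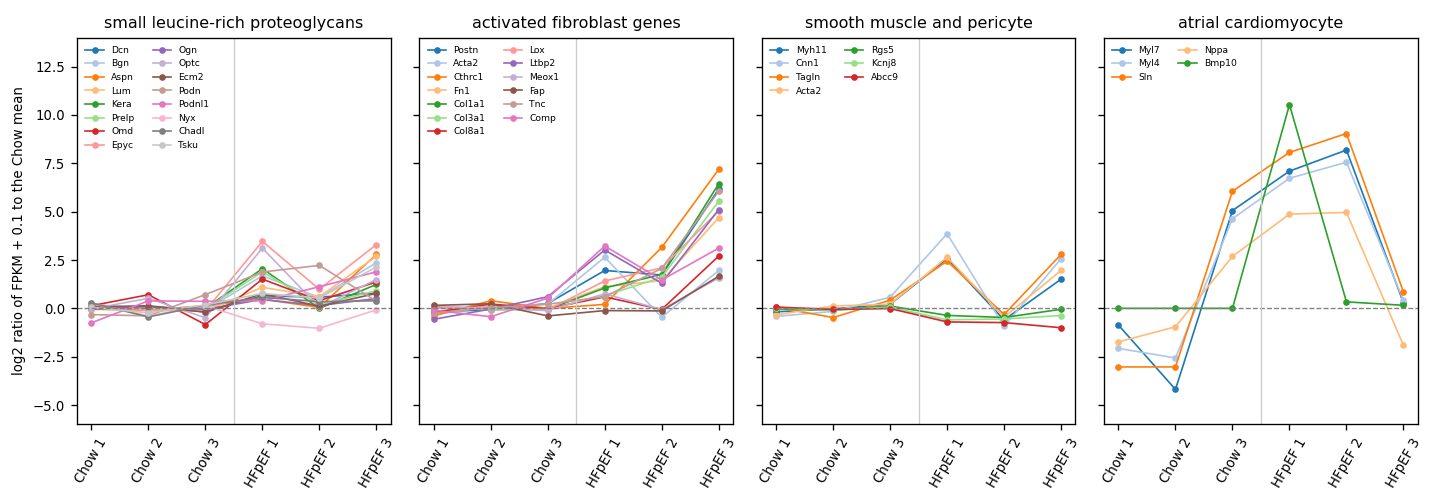
Difference of log2(FPKM + 0.1) from the Chow mean (vertical axis) in all 6 libraries (horizontal axis), with 1 line per gene of 4 lists. Smooth muscle contractile genes are high in HFpEF replicates 1 and 3, 11 of 13 activated fibroblast genes (all but Acta2 and Comp) peak in HFpEF replicate 3, and all atrial genes but Bmp10 are high in Chow replicate 3 and HFpEF replicates 1 and 2.

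The genes whose profile over the 6 libraries was closest to the median of the 7 members past the FPKM minimum were sought among 12104 tested protein-coding genes. Likeness was the root mean square difference of the log2 ratios to the Chow mean over the 6 libraries. The 8 closest were Calhm5, Map1b, Gng8, Alcam, Flna, Myl9, Nkd1 and Pdlim3, with differences of 0.132 to 0.290, against a median of 1.21 over all candidates. Calhm5 and Alcam were under 0.5 FPKM in every Chow library and reached the FPKM minimum through the HFpEF libraries alone. These 2 genes thus had to lie above Chow, and their rise is no support for a difference. Flna, the actin crosslinker filamin A, had FPKM of 24.9, 26.8 and 27.4 in Chow and 91.4, 27.9 and 89.5 in HFpEF. Myl9, a myosin light chain of smooth muscle, had 29.3, 40.5 and 39.5 in Chow and 197, 39.6 and 113 in HFpEF. Both were at the Chow level in HFpEF replicate 2. Alcam, a cell adhesion molecule, had 0.424, 0.299 and 0.372 in Chow and 1.62, 0.787 and 1.66 in HFpEF, and Nkd1, an inhibitor of Wnt signalling, 0.586, 0.673 and 0.798 in Chow and 2.57, 1.40 and 2.34 in HFpEF.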

How the data were processed

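Left ventricular RNA of 3 Chow and 3 HFpEF mice was sequenced. The authors used HISAT2 for alignment and featureCounts for counting, and deposited the values as FPKM. The submitters' processing notes name GRCm38 and mm10. The annotation and the use of strand are not given in the sources used here. Of 54532 identifiers, 54409 matched GENCODE M21, whose exon lengths turned 96.0% to 96.2% of values into whole reads (relative tolerance 1e-06). Median-of-ratios factors computed from the deposited FPKM were 1.00 to 1.01, although the implied denominators ran from 1.17e+07 to 1.93e+07 and differ from the read totals.

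FPKM was divided by those factors, and log2(FPKM + 0.1) was fitted with limma 3.58.1 (trend and robust options, R 4.3.3) for 14225 genes with FPKM of at least 0.5 in 3 libraries, with Benjamini-Hochberg adjustment. The fit was tested on simulated data. The 10 genes, 12 pathway lists, 16 marker lists and tests were chosen with earlier results of these data known. Named genes were the 10 members, 3 abundant and up to 3 most changed genes (unadjusted p under 0.05) per pathway list, the most abundant and absent genes per marker list, and the 8 genes closest in profile. Others were named after their values were seen. Alternatives were other scalings, pseudocounts, filters and tests, and leaving out each library. Tables used Python 3.11.15 and pandas 2.3.3.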

Additional observations from a re-analysis of the deposited data

How the results depend on the processing

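The median log2 fold change of the 10 genes, 1.49, stayed between 1.09 and 2.00 over the alternatives run, and HFpEF replicate 2 was the lowest HFpEF library for 10 of 10 genes as deposited, with TPM and with quantile normalization. Pseudocounts and Chow libraries cannot change that count, which compares the 3 HFpEF libraries, and leaving out 1 of those could not be run. Scx, at −0.11, turned to 0.40 with values rescaled to equal sums (TPM), under which the median of all genes was 0.50, and to 0.020 as the log2 ratio of group means, and ran from −0.43 to 0.36 when 1 library was left out. The median of the collagen-binding integrins, 0.16, ran from −0.0085 (without HFpEF replicate 3) to 0.32 when 1 library was left out, and was 0.68 with TPM, 0.48 with quantile normalization and 0.51 without a filter. With a pseudocount of 0.01, Tnmd, Acan and Hapln1 moved from 0.65, 0.92 and 1.14 to 2.23, 2.02 and 3.04, and as the log2 ratio of group means Acan and Hapln1 were at 2.53 and, against its bound, 3.56. The count of 8 differentially expressed genes became 23 with TPM, 2 and 3 with pseudocounts of 1 and 0.01, 5 with an FPKM minimum of 1, 19 (15 higher) without trend and robust options, 14 at a log2 fold change of 1 or more in size, and 2 to 59 when 1 library was left out. Limma-voom on recovered reads called 0 (1374 genes higher and 1816 lower at an unadjusted p under 0.05). The 38 list genes at an unadjusted p under 0.05 became 22 to 48 when 1 library was left out. The cause of these differences was not tested.

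With the replicate number as a replicate block, the count was 2. Deviations of same-numbered libraries correlated at −0.0406, −0.0730 and −0.0573, so no shared deviation by number was seen. With 3 libraries per group these values cannot exclude paired handling, which the labels do not state. Genes with few reads (Tnmd, Acan and Hapln1) are limited by depth.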

Other observations

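A few genes of the lists had the library order of the atrial markers and not that of the 10 genes, and were chosen after their values were seen. Cilp2, a matrix protein related to Cilp, had FPKM of 0.0814, 0.178 and 3.87 in Chow replicates 1 to 3 and 12.6, 29.6 and 1.82 in HFpEF replicates 1 to 3. Podn, a leucine-rich proteoglycan, had 4.70, 4.49 and 9.74 in Chow and 22.0, 27.9 and 7.71 in HFpEF. Gdf7, a BMP family ligand, had 0.0987, 0 and 0.523 in Chow and 1.47, 2.95 and 0.364 in HFpEF. In all 3 genes Chow replicate 3 was the highest Chow library, as it was for Myl7, and HFpEF replicate 3 was the lowest HFpEF library. The genes were picked with this order seen, so their likeness to the atrial markers came with the choice. The part of atrial tissue in their values was not tested.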
